A study of Mus musculus with 2 samples.

Results

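The genes described here are 4 secreted effectors of type 17 T cells, taken by symbol from a table of 32285 genes: Il17a, Il17f, Il22 and Ccl20. Interleukins 17A and 17F are related cytokines that act, alone or as a heterodimer, on epithelial and stromal cells, which then make neutrophil-attracting chemokines and antimicrobial proteins. Interleukin 22 acts mainly on epithelia, where it supports barrier repair, and CCL20 is the chemokine ligand of CCR6, a receptor that Th17 cells carry themselves. Th17 cells and a subset of γδ T cells make these proteins, and after stimulation they do so in short bursts, so that a resting cell with a type 17 history can lack the transcripts.

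The cells were sorted as CD4+YFP+ in experimental autoimmune encephalomyelitis, a model disease induced with MOG and CFA, at its peak. The control library was made from mice of genotype Il17Cre/R26YFP, and the Id2-deficient one from animals that are Il17Cre/Id2f/f/R26YFP; both carry the Cre, so YFP marks a history of Il17 promoter activity in both, and the groups differ by the floxed Id2 alleles. As tissue the labels give spleen and lymph node in one place and the spleen by itself in another, and the sample titles end in DLN. The number of mice pooled, and whether the Il17Cre allele alters the Il17a transcript, are not given in the sources used here. With 1 library per genotype there is no replicate check and no test, and each 95% interval covers counting error only.

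The control library held 4937 barcodes with 33646845 UMIs (unique molecular identifiers, 1 per captured transcript) and the Id2-deficient library 2459 barcodes with 14668624 UMIs. Barcodes with over 10% of UMIs from mitochondrially encoded (mt-) genes or under 200 genes were removed, 12 of them control and 525 Id2-deficient (21.4% of that library). Cells with at least 1 CD3 UMI numbered 4800 and 1886, with a median of 5478 and 6381.5 UMIs and a median mt- share of 1.75% and 4.18%. Id2 gave 336 CPM (UMIs per 1000000 UMIs of the cells concerned) in control and 12.5 CPM in Id2-deficient CD3-positive cells. The libraries shared 3 barcode sequences, none with a UMI of the 4 genes.

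Cells were split by Trdc, the constant gene of the T cell receptor δ chain. Trdc was at 0 in 3920 control cells (81.7%) and 1718 Id2-deficient cells (91.1%), and at 3 or more UMIs in 611 (12.7%, Clopper-Pearson interval 11.8% to 13.7%) and 147 (7.79%, 6.62% to 9.10%). Among cells with Trdc at 0, Trac, the α chain gene, was seen in 90.5% and 97.4%, against 31.8% and 42.9% of those with 3 or more Trdc UMIs. Tcrg-C1, a γ chain gene, ran the other way, at 8.01% and 3.61% against 82.3% and 77.6%. Cd4 was seen in 65.2% and 77.4% of Trdc 0 cells and in 11.8% and 12.2% of cells with 3 or more Trdc UMIs, although all had been sorted as CD4+. The 269 and 21 cells with 1 or 2 Trdc UMIs were counted among CD3-positive cells only.

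Il17a (ENSMUSG00000025929; GRCm38, chromosome 1, 20730905 to 20734496, plus strand) and Il17f (ENSMUSG00000041872; chromosome 1, 20777146 to 20790617, minus strand) lie 42.65 kb apart. Ccl20 (ENSMUSG00000026166; chromosome 1, 83116766 to 83119167, plus strand) is on the same chromosome, and Il22 (ENSMUSG00000074695; chromosome 10, 118204942 to 118210047, plus strand) is on another. The promoters of the 3 interleukin genes are shown because Il17a and Il17f, which lie side by side, and Il22 are the genes on which the comparisons below turn. They run from 250 bases before to 50 bases after the start (RefSeq, GRCm38.p6), in the direction of transcription, with AGGTCA, a core motif bound by many nuclear receptors, or its reverse complement in capitals. Their positions are chr1:20730655-20730954 (plus), chr1:20784221-20784520 (minus) and chr10:118204714-118205013 (plus). The Il17f window lies within the gene span above, so its start is not the outer end of that span. The start used for Il22 also lies inside its gene span, a short way from the outer end.
Il17a: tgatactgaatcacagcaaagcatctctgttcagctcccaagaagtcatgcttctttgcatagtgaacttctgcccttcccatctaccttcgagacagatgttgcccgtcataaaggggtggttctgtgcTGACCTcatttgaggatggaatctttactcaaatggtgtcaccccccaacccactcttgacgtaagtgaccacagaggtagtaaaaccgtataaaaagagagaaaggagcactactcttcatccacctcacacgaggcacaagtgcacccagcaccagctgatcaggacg
Il17f: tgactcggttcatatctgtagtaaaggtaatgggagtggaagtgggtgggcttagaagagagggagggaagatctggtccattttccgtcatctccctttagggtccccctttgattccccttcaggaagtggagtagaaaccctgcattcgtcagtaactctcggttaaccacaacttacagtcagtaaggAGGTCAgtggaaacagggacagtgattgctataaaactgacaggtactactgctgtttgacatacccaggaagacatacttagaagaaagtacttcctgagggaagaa
Il22: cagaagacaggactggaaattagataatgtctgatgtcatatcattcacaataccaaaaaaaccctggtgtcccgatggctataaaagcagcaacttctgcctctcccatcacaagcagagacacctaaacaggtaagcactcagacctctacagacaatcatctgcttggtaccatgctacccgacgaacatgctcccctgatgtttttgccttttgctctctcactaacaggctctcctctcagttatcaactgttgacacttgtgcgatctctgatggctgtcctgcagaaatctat
The motif stood 120 bases before the start of Il17a, 58 before that of Il17f and 174 before that of Ccl20, and these letters were not in the Il22 window. Of 32851 promoters of this length, 16.3% held it on either strand, so a match is a description and not a site. The letters TGANTCA (N is any base), searched for as an AP-1 motif, were found in Il17a only, as TGAATCA 244 bases before the start. They were in 7.81% of all promoters, so this match too is a description and not a site.

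Each of the 4 transcripts was rare in cells with a type 17 history. Il17a was seen in 134 of 4800 control cells (2.79%, 2.34% to 3.30%) and 36 of 1886 Id2-deficient cells (1.91%, 1.34% to 2.63%). Il17f was seen in 230 (4.79%) and 100 (5.30%) cells. Il22 was seen in 205 (4.27%) and 203 (10.8%) cells, with intervals of 3.72% to 4.88% and 9.40% to 12.3%. Ccl20 was seen in 27 (0.563%) and 10 (0.530%) cells. At least 1 of the 4 genes was seen in 509 control cells (10.6%) and 299 Id2-deficient cells (15.9%).

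**Figure D1:**
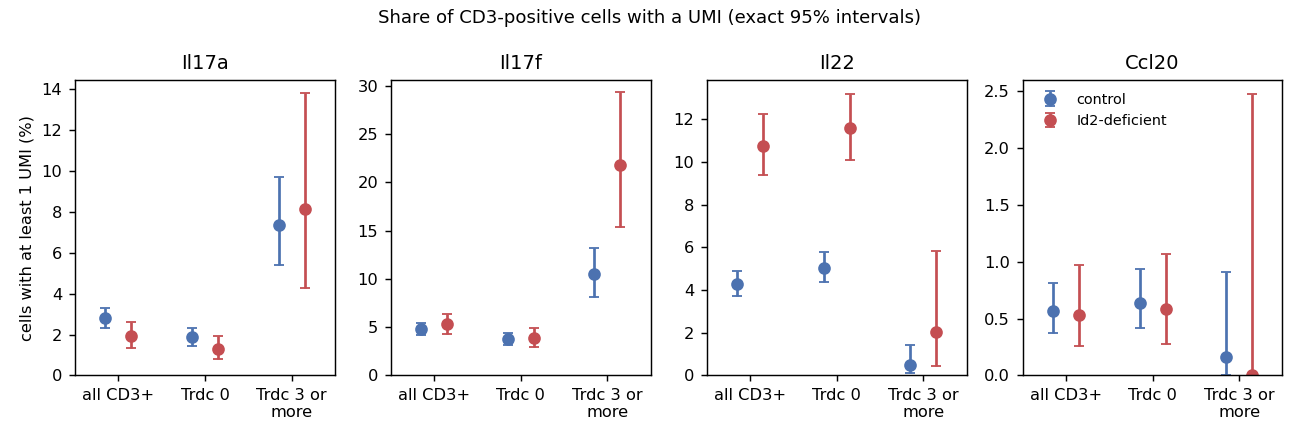
Share of cells with at least 1 UMI of each gene (vertical axis, percent, a scale of its own for each gene) in all CD3-positive cells and in cells with Trdc at 0 or at 3 or more UMIs; points are libraries and bars exact 95% intervals. Il22 was seen in 5.03% of control and 11.6% of Id2-deficient cells with Trdc at 0. In cells with 3 or more Trdc UMIs it was seen in 0.491% and 2.04%.

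The background for these shares was taken from B cells, which should lack the genes: 38 control and 33 Id2-deficient cells with at least 3 UMIs of Cd79a, Cd79b and Ms4a1 and no CD3 UMI. None held a UMI of the 4 genes, which allows a share of up to 7.89% and 9.09%, at median depths of 3646.5 and 4954 UMIs. This limit lies above most of the shares in T cells. The wider set of CD3-negative cells (125 and 48) held 2 UMIs of Il17f in 2 control cells and none of the other genes in either library.

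Positive cells were sequenced more deeply than negative ones. Il17f-positive cells had a median of 7321.5 UMIs against 5407 in the control and 9339 against 6214.5 in the Id2-deficient library. When the chance of seeing a UMI among 1000 drawn from each cell was averaged over all draws, Il22 was positive in 0.928% of control and 2.24% of Id2-deficient cells, and Il17a in 0.644% and 0.538%. The log2 ratio of the same measure for Il17f was 0.32. The log2 ratio of the share of Il22-positive cells was 1.27 at this equal depth and 1.33 (1.05 to 1.62) at full depth.

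Most positive control cells held a single UMI, and so did most Id2-deficient cells positive for Il17a or Il22. For Il17a these were 59.0% of positive control and 55.6% of positive Id2-deficient cells, and for Il22 67.8% and 60.6%. For Il17f they were 62.6% and 48%, and for Ccl20 55.6% and 30%. A few cells held the rest. In number of cells, 50% of Il17a UMIs lay in 19 control and 6 Id2-deficient cells, and 50% of Il17f UMIs in 18 and 12. For Ccl20 the numbers were 4 and 2 cells.

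Il22 was the extreme case, since a single control cell held 420 of the 801 control UMIs (52.4%). In the Id2-deficient library the highest cell held 48 of 542 (8.86%), and 50% of the UMIs took 23 cells. Il17f had 172 of its 663 control UMIs (25.9%) in that same control cell, while Il17a had its largest share in 1 cell in the Id2-deficient library, 23 of 95 UMIs (24.2%). Ccl20 reached 18.9% in 1 control and 30.2% in 1 Id2-deficient cell. Of genes with 50 to 1000 UMIs, 0.757% had 20% or more of their UMIs in 1 cell in the control library and 0.459% in the Id2-deficient one. Of the 4 genes, Il17f and Il22 did so in control cells. Among Id2-deficient cells Il17a did, and Ccl20, at 43 UMIs, lay under that range.

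**Figure D2:**
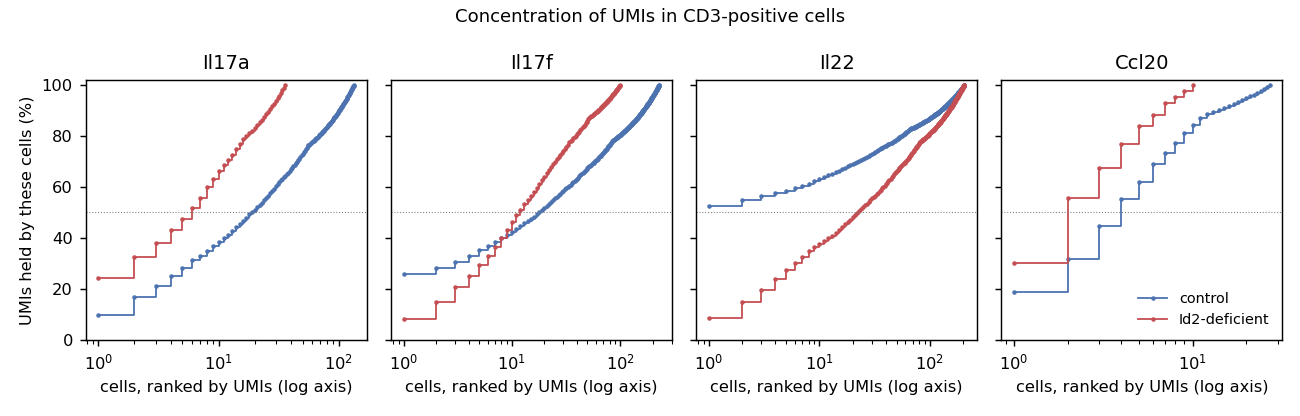
Cumulative share of each gene's UMIs (vertical axis, percent) held by the cells with most UMIs (horizontal axis, log scale), in CD3-positive cells of each library, with a dotted line at 50%. The control curve of Il22 starts at 52.4% with its first cell, and the Id2-deficient curve at 8.86%.

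That control cell was described after its values were seen. It held 33 UMIs of Il17a, 172 of Il17f, 420 of Il22 and 17 of Ccl20, and 1.41% of its 45447 UMIs came from the 4 genes. It was deeper than 99.9% of control CD3-positive cells, with 0.975% of UMIs from mt- genes. It had 26 CD3 UMIs, 9 of Trac, 30 of Trbc2, 3 of Cd4 and 0 of Trdc, with 5 UMIs of Ccr6. It supplied 33.4% of all UMIs of the 4 genes in control CD3-positive cells. Another deep control cell, of 43954 UMIs, held 22 Il17a and 25 Ccl20 UMIs but 2 of Il17f and 1 of Il22. In the Id2-deficient library the highest Il17a cell held 8 Il17f UMIs and none of Il22 or Ccl20, with 1 Trdc UMI, and so lies in neither Trdc group.

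The level of each gene was next compared between libraries, in CPM. Over all genes measured in CD3-positive cells (at least 50 UMIs over both libraries), 16.3% were at least 1.5-fold higher and 9.84% at least 1.5-fold lower in the Id2-deficient library, so a difference of that size was common. Il22 gave 24.6 CPM (22.9 to 26.4) in the control and 39.1 CPM (35.8 to 42.5) in the Id2-deficient library, a log2 ratio of 0.67 (0.51 to 0.83). Without the 1 control cell above the log2 ratio was 1.74 (1.55 to 1.93), or 3.33-fold. Il17f gave 20.4 and 26.8 CPM, a log2 ratio of 0.40 (0.21 to 0.58), and 0.83 (0.63 to 1.03) without that cell. Il17a gave 10.1 and 6.85 CPM, a log2 ratio of −0.56 (−0.91 to −0.23), but averaging each cell's own share of UMIs gave 0.0091. Ccl20 gave 4.05 and 3.10 CPM, and its log2 ratio of −0.39 had an interval that held 0 (−0.92 to 0.12). Of the 4 genes, 1 (Il22) was thus past 1.5-fold, and the median log2 ratio of all genes was 0.09. The median mt- share of Il22-positive cells was 1.68% for control and 3.96% for Id2-deficient cells, close to that of negative cells (1.76% and 4.19%); its part in the ratio was not tested.

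Splitting by Trdc separated the genes. In Trdc 0 cells, where 16.8% of all genes passed 1.5-fold upward and 9.63% downward, Il17a was 1.94-fold lower in the Id2-deficient library, at 3.83 against 7.45 CPM (log2 ratio −0.96, −1.45 to −0.50). Averaging each cell's own share of UMIs, which gives shallow and deep cells equal weight, brought that to −0.16, so the size of this difference was not held under that weighting. Without the 1 control cell described above, Il17a in control Trdc 0 cells fell to 6.21 CPM (163 UMIs), nearer to the Id2-deficient level. Il17f gave 18.1 against 18.4 CPM there (−0.02, −0.25 to 0.21), and its log2 ratio was 0.61 (0.36 to 0.87) without the 1 control cell. Il22 was 1.42-fold higher with that cell (0.51, 0.35 to 0.67) and 3.02-fold higher without it (1.60, 1.40 to 1.79). Its share of positive cells (197 control and 199 Id2-deficient cells) was 2.30-fold higher.

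In cells with 3 or more Trdc UMIs, 9.89% of all genes passed 1.5-fold upward and 9.41% downward. Il17f was among the higher ones: 32 of 147 Id2-deficient cells (21.8%) held 136 UMIs, and 64 of 611 control cells (10.5%) held 135. This was 111 CPM (93.1 to 131) against 29.4 CPM (24.7 to 34.8), or 3.77-fold (2.95 to 4.82). No single cell carried it, since the 3 highest Id2-deficient cells held 17, 14 and 13 UMIs. The log2 ratio of 1.92 was 1.78 with the 3 highest cells of each library left out. Few cells held most of the UMIs, however, as the 10 highest had 72.1% in the Id2-deficient and 46.7% in the control library. At 1000 UMIs per cell 6.86% and 2.51% of cells were positive. For Il17a, its chromosomal neighbour, 12 Id2-deficient cells with 19 UMIs and 45 control cells with 99 UMIs gave 15.5 and 21.6 CPM, a log2 ratio of −0.48 with an interval that held 0 (−1.27 to 0.24). Il22 rested on 6 and 4 UMIs. Ccl20 had 1 UMI in the control and none in 147 Id2-deficient cells, which allows a share of up to 2.04%.

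**Figure D3:**
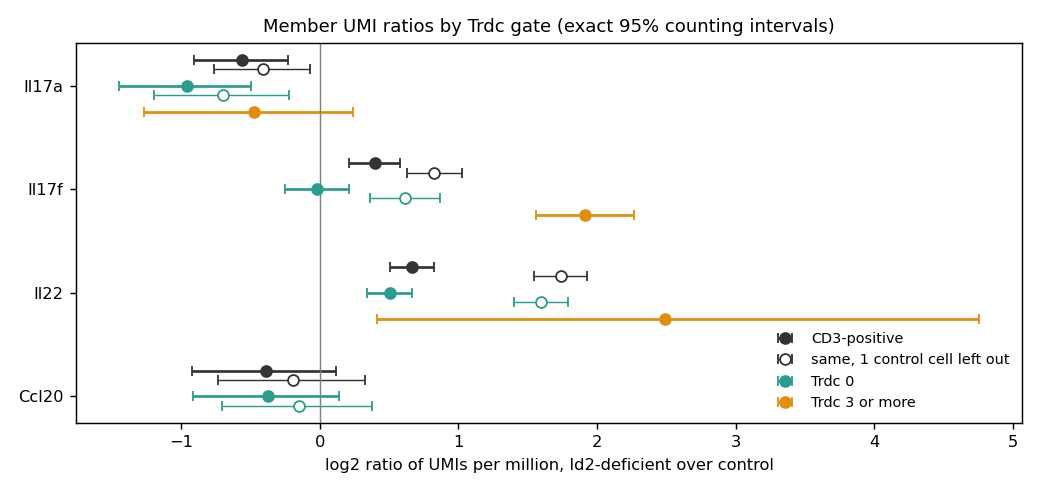
Log2 ratio of CPM, Id2-deficient over control (horizontal axis), for each gene in all CD3-positive, Trdc 0 and Trdc 3 or more cells; bars are exact 95% counting intervals, and open points leave out the 1 control cell with most UMIs of the 4 genes. Il17f lies near 0 in Trdc 0 cells and at 1.92 in Trdc 3 or more cells, and Il22 moves from 0.67 to 1.74 in all CD3-positive cells when that cell is left out.

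Within each library the 4 genes divided between the Trdc groups in 2 ways. Il17a and Il17f were higher in CPM in cells with 3 or more Trdc UMIs. The excess of Il17a was 2.89-fold (2.25 to 3.70) among control and 4.05-fold (2.25 to 7.01) among Id2-deficient cells, and that of Il17f 1.60-fold (1.31 to 1.94) and 6.12-fold (4.91 to 7.61). Without the 1 control cell, which has Trdc at 0, the control excess of Il17a was 3.47-fold (2.68 to 4.49). That of Il17f was then 2.48-fold (2.01 to 3.05). Il22 was the reverse, 34.5-fold lower (13.4 to 127) and 8.72-fold lower (3.98 to 23.9) in those cells, with 98.8% and 98.7% of its UMIs in Trdc 0 cells. Without that cell the control value was 16.2-fold lower (6.28 to 59.8). Ccl20 had 88.6% and 100% of its UMIs in Trdc 0 cells, which were 81.7% and 91.1% of CD3-positive cells. In control cells with 3 or more Trdc UMIs it was 20.4-fold lower (3.59 to 813), on 1 UMI. No Ccl20 UMI was seen in such Id2-deficient cells, and the interval reached down to 1.09-fold lower. Ccl20 is thus placed less firmly than Il22.

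Il22 has a near-identical copy, Iltifb (ENSMUSG00000090461; chromosome 10, 118289629 to 118295038, minus strand), 79.6 kb away. The 2 transcripts were 97.3% identical, and 94.4% over the last 300 bases, where a 3′ library reads. Reads from stretches that they share cannot be told apart, so each value is uncertain. Iltifb gave 290 UMIs in control and 302 in Id2-deficient CD3-positive cells, a log2 ratio of 1.29 (1.05 to 1.53). The sum of both genes gave 0.86 (0.73 to 0.99), and 1.58 without the 1 control cell. That cell held 420 Il22 and 8 Iltifb UMIs, 52.5 to 1, while the other control cells held 1.35 to 1 and the Id2-deficient cells 1.79 to 1. At least 1 UMI of either gene was seen in 6.54% of control and 16.5% of Id2-deficient cells.

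Few cells held more than 1 of the 4 genes. Of the 509 control cells with any, 433 had 1 gene, 67 had 2, 7 had 3 and 2 had all 4; of the 299 Id2-deficient cells, 253 had 1, 42 had 2, 4 had 3 and none had 4. Il17f was seen more often in cells with Il17a than in cells without it. The share was 26.9% (19.6% to 35.2%) among Il17a-positive control cells and 4.16% among the others, and 44.4% (27.9% to 61.9%) and 4.54% in the Id2-deficient library. In Trdc 0 cells Il22 was seen in 21.2% of Il17f-positive control cells against 4.40% of the others, and in 40.9% against 10.4% in the Id2-deficient library. Even so, 166 of 205 Il22-positive control cells (81.0%) and 172 of 203 Id2-deficient ones (84.7%) had neither Il17a nor Il17f. Ccl20 was seen in 8 of 134 Il17a-positive control cells (5.97%) and 0.407% of the others, and in none of 36 in the Id2-deficient library. In cells with 3 or more Trdc UMIs none of 64 Il17f-positive control cells and 1 of 32 Id2-deficient ones held Il22. Positive cells were deeper, which by itself makes a second gene more likely to be seen; its part in these shares was not tested.

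The genes whose detection ran most like that of each member were ranked by the phi coefficient across CD3-positive cells. This is a correlation of seen with not seen, over 10595 genes, in 4800 control and 1886 Id2-deficient cells. Cells of a library are not replicates. Their depth differed and was not matched, and its part in the coefficients was not tested. For Il17a the genes included Il17f (0.175 in control and 0.244 in Id2-deficient cells) and Tcrg-C1 (0.140 and 0.139). For Il17f they included Il17a and Ccr6 (0.157 and 0.150). For Il22 they were Iltifb (0.277 and 0.289), Tox2 (0.170 and 0.180) and Ncapg2 (0.142 and 0.188). For Ccl20, from 27 and 10 cells, they were Iltifb, Il1r2 and Ifi211, at 0.118 or below. All coefficients were low, as sparse counts give, and serve only as a description.

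Cells that held the cytokines were then described by other genes, in Trdc 0 cells and in CPM because depth differed. Cells with Il17a or Il17f numbered 199 among control and 80 among Id2-deficient cells, cells with Il22 197 and 199, and cells with none of the 4 genes 3546 and 1462; some cells are in both of the first sets. Ccr6, the receptor for CCL20, was 204 CPM in control cells with Il17a or Il17f, 187 CPM in those with Il22 and 118 CPM in those with none, and 227, 156 and 111 CPM in the Id2-deficient library. Il1r1, a receptor for interleukin 1, was 62.8, 72.2 and 30.9 CPM in the control and 85.5, 81.0 and 46.0 CPM in the Id2-deficient library.

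The proliferation gene Mki67 was higher in cells with cytokine UMIs in both libraries, at 203 and 192 CPM against 70.0 in the control and at 184 and 182 against 63.3 in the Id2-deficient library. Nkg7, a gene of cytotoxic granules, was the reverse, at 41.7 and 52.7 against 208 CPM in the control. In the Id2-deficient library no Nkg7 UMI was seen in Trdc 0 cells with Il17a or Il17f or with Il22, against 17.3 CPM with none. The 4 markers of Th1 cells (Tbx21, Ifng, Cxcr3 and Nkg7) summed to 106 and 156 against 348 CPM in the control. In the Id2-deficient library their sums lay closer together, at 91.7 and 85.3 against 95.1 CPM. Nkg7 added nothing to the sums of the positive sets there, so the other 3 markers as a set did not show its contrast. In cells with 3 or more Trdc UMIs, Mki67 was again higher with Il17a or Il17f, at 151 against 83.6 CPM and at 152 against 51.0 CPM, although in the Id2-deficient library this rested on 5 of 37 cells (13.5%), against 15 of 108 (13.9%). Maf was 438 against 431 CPM in the control and 794 against 681 CPM in the Id2-deficient library. Cells with cytokine UMIs were deeper, and CPM summed over cells gives deep cells more weight. The part of depth in the Mki67 and Nkg7 values was not tested.

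Cxcr5, the chemokine receptor of follicular helper T cells, set the 2 kinds of cytokine-positive cell apart. In control Trdc 0 cells it was 0.916 CPM (2 UMIs) with Il17a or Il17f, 31.6 CPM with Il22 and 14.1 CPM with none. In the Id2-deficient library it was 47.4, 95.4 and 84.8 CPM, so that cells with Il17a or Il17f were lowest in both libraries. Il21, a cytokine of follicular helper T cells, was 11.0, 26.3 and 9.85 CPM in the control and 69.0, 82.0 and 53.7 CPM in the Id2-deficient library. Tmem176b, a membrane protein gene high in type 17 cells, was highest with Il17a or Il17f in both libraries, at 607, 409 and 507 CPM and at 389, 189 and 181 CPM. The 25 control Trdc 0 cells with Ccl20 held 161 CPM of Ahr, a ligand-activated transcription factor, against 30.0 CPM in cells with none of the 4 genes, and no Cxcr5 UMI. The 10 Id2-deficient cells with Ccl20 were not profiled as a set, and a cell among them with 5 Ccl20 UMIs held 3 of Cxcr5.

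**Figure D4:**
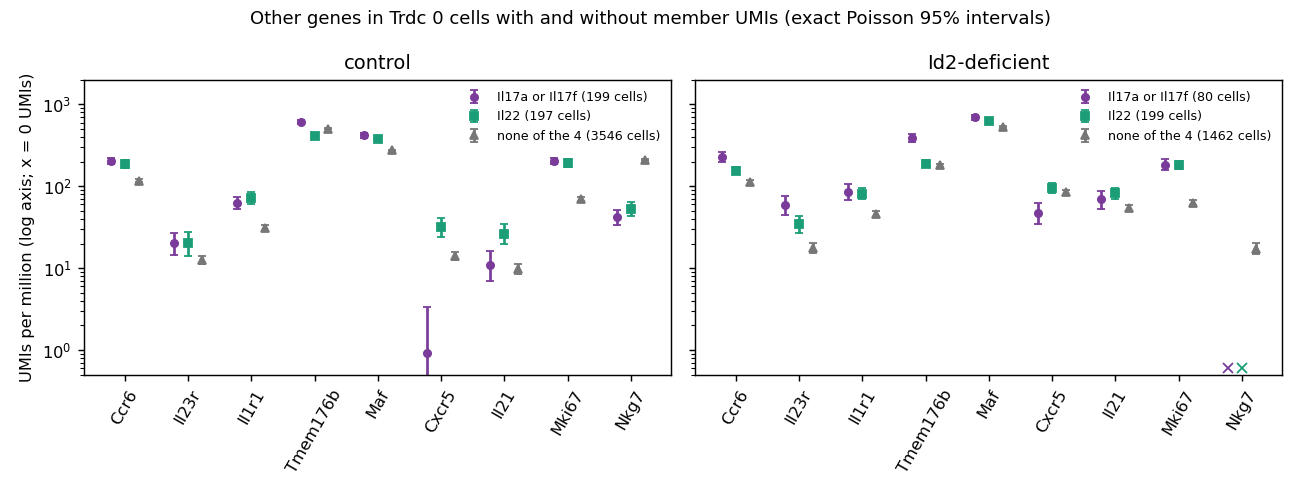
CPM (vertical axis, log scale, crosses for 0 UMIs) of 9 genes in Trdc 0 cells with Il17a or Il17f, with Il22, or with none of the 4 genes, in each library; bars are exact Poisson 95% intervals. Ccr6, Il1r1 and Mki67 are higher with either kind of cytokine than with none in both libraries, and Cxcr5 is lowest with Il17a or Il17f.

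Markers of other cell types were read in the same sets. In CD3-positive cells with Il17a or Il17f the 9 γδ T cell markers summed to 963 CPM (control) and 885 CPM (Id2-deficient), with Il22 to 83.9 and 120 CPM, and with none of the 4 genes to 521 and 311 CPM. The 4 follicular helper markers summed to 54.3 and 151 CPM with Il17a or Il17f, to 141 and 307 CPM with Il22 and to 60.8 and 262 CPM with none. The 4 neutrophil markers summed to 19.8 and 0.748 CPM with Il17a or Il17f and to 1700 and 2.22 CPM in cells with none, so that the contrast was in the control library. The 6 B cell markers summed to 266 and 424 CPM with Il17a or Il17f, to 120 and 268 CPM with Il22 and to 564 and 525 CPM with none, with 3 or 4 of the 6 detected in the positive sets and Ms4a1 at 0 there. The 4 mast cell and basophil markers were at 0 with Il17a or Il17f in both libraries and with Il22 in the control, and summed to 0.472 CPM with Il22 in the Id2-deficient library. The 5 monocyte or macrophage markers were higher with Il17a or Il17f, at 417 and 234 CPM against 298 and 158 CPM with none. With Il22 they summed to 346 and 111 CPM. The part of all these markers in the levels of the 4 genes was not tested.

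The wider type 17 program was read from a list of 36 genes, of which 34 were in the table and 32 were measured in CD3-positive cells. Of these, 9 were at least 1.5-fold higher and 7 at least 1.5-fold lower in the Id2-deficient library; the median log2 ratio over the list was −0.05, and over all genes 0.09, with 16.3% of all genes higher and 9.84% lower. In Trdc 0 cells 12 of 32 were higher and 9 lower (median 0.04), against 16.8% and 9.63% of all genes (median 0.10). In cells with 3 or more Trdc UMIs 4 of 26 were higher and 4 lower (median 0.11), against 9.89% and 9.41% of all genes (median −0.04). Among the most abundant in Trdc 0 cells, Tmem176a, Tmem176b and Il18r1, a receptor for interleukin 18, were lower, at −1.15, −1.40 and −0.77. Maf, a transcription factor that restrains or supports Th17 cytokines depending on the gene, Batf, an AP-1 factor needed for Th17 cells, and Hif1a, the oxygen-sensing factor, were higher, at 0.91, 0.98 and 0.71. Ltb and Rora, which encode lymphotoxin β and a nuclear receptor, were within 1.5-fold, at −0.02 and −0.33.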

How the data were processed

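The data are 2 single-cell 3′ RNA libraries, 1 per genotype. The deposited counts are UMI counts per gene and barcode, which the authors made with Cell Ranger, version 5.0.1 per the file headers and 1.3 per the submitters' processing notes, on mm10 per those notes. How barcodes were filtered before deposit was not stated there.

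A cell needed 200 genes or more and no more than 10% mt- UMIs, and was called CD3-positive with at least 1 UMI of Cd3d, Cd3e or Cd3g. UMIs were summed over cells and divided by the total to give CPM. Intervals are exact Poisson, Clopper-Pearson and conditional binomial intervals at 95%; where a count was 0 the limit is 3 counts. Genes with at least 50 UMIs over both libraries were measured. No p-value was computed. Doublets were largely left in: Scrublet marked 2 and 8 cells, too few to have worked, and an alternative dropped the top 4% by score. Ratios, phi coefficients and thinning were tested on simulated or drawn data. Shares at 1000 UMIs per cell were first taken from 1 random draw; 2 draws gave different shares of positive cells in the smaller sets, so the exact mean over all possible draws is printed instead, a choice made after those draws were seen. It left out 2 and 7 cells.

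The 4 genes, the gene lists and the Trdc groups were chosen with earlier results of these data known. Genes named beyond the 4 are those of the type 17 list with most UMIs, the 3 genes with the highest phi for each member, and markers, apart from results not reported here; the single cells, and the genes picked from the marker and type 17 lists to describe positive cells, were chosen after their values were seen. Motifs were searched in RefSeq promoters, all 4 of which were found. Tools were Python 3.11.15, numpy 2.4.6, scipy 1.17.1, pandas 2.3.3, scanpy 1.11.5, matplotlib 3.10.9, Biopython 1.88, R 4.3.3 and edgeR 4.0.16, the last for TMM scaling factors only, as an alternative.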

Additional observations from a re-analysis of the deposited data

Results flagged for a closer look

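The log2 ratio of Il17f, Id2-deficient over control, was −0.02 in cells with Trdc at 0, which is no direction since its interval held 0, and 1.92 in cells with 3 or more Trdc UMIs. The difference between the groups was not tested, since each genotype has 1 library. Without 1 control cell the first value was 0.61, on the same side as the second.

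The 525 Id2-deficient barcodes removed for their mt- share, which enter no comparison, held UMIs of all 4 genes. There were 8 of Il17a in 7 cells, 18 of Il17f in 10 cells, 22 of Il22 in 13 cells and 10 of Ccl20 in 1 cell. The 12 removed control barcodes held none, which with so few barcodes allows a share of up to 25.0%.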

How the results depend on the processing

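Across 136 alternatives for 11 UMI ratios, 114 stayed within the counting interval, 22 moved and no value past 1.5-fold changed sign, while Il17a in CD3-positive cells, under 1.5-fold at −0.56, came to about 0 when averaged over cells; for shares of positive cells 80 of 87 stayed and 7 moved, and all 32 for concentration stayed. Averaging over cells gave log2 ratios of 0.0091 (Il17a) and 1.03 (Il22) in CD3-positive cells and −0.16 and 0.87 in Trdc 0 cells. With the top cell of each library left out, Il17f gave 0.70 and 0.40 and Il22 1.61 and 1.46 in the same 2 groups. With the top 3 left out, Il17f gave 0.60 in CD3-positive cells, Il22 1.55 and 1.41, and Ccl20 −1.15 and −0.98. Without the control cell richest in these genes, chosen after seeing the data, Il17f gave 0.83 and 0.61 and Il22 1.74 and 1.60. Il22 plus Iltifb, also added then, gave 0.86 and 0.71, and 1.58 and 1.44 without that cell. In Trdc 3 or more cells Il17f gave 2.27 without cells that held 3 or more UMIs of Cd79a, Cd79b and Ms4a1. Of control cells there with Il17a or Il17f, 65.3% held Cd79b and none held Cd79a or Ms4a1. This setting therefore does not single out doublets with B cells. For shares, requiring 2 UMIs gave 0.62 (Il17f) and 1.63 (Il22) in CD3-positive cells; requiring 3 gave 0.85 and 1.76 there, 1.57 for Il22 in Trdc 0 cells, and −1.65 (Il17a) and 2.28 (Il17f) in Trdc 3 or more cells. Requiring 2 UMIs of each gene, Il17f was seen in 10.6% of Il22-positive control cells, and Il22 in 8.14% of Il17f-positive control and 17.3% of Id2-deficient cells. Measuring genes from 10 UMIs raised the genes at least 1.5-fold lower from 1096 to 1681 in CD3-positive and from 1046 to 1586 in Trdc 0 cells; in Trdc 3 or more cells the higher ones went from 754 to 1533 and the lower ones from 718 to 1424. Other scalings moved the median of all genes in CD3-positive cells from 0.09 to 0.01 (TMM) or 0.16 (without mt- and ribosomal protein UMIs). No paired analysis was possible because each genotype has 1 library. In the 611 and 147 cells with 3 or more Trdc UMIs, Il22 and Ccl20 rest on 6 UMIs or fewer per library.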
